A study of Mus musculus with 8 samples.

Results

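The PAR bZIP factors Dbp, Tef and Hlf and the related repressor Nfil3 were measured in whole cerebellum of mice that lack the long isoform of Capicua, a transcriptional repressor encoded by Cic. The 4 genes were taken by symbol, as every probe set of the array annotated with Dbp, Tef, Hlf or Nfil3 alone, and they made up 4 of 20352 genes and 27 of 241576 probe sets. They were selected on their gene symbols and place in the circadian output, with the difference in mean log2 value between mutant and wild-type already seen, so their differences between the groups are a description and carry no test. The study compared 4 wild-type mice with 4 mice of genotype Cic-L-null. All 8 were 28 days old and of a mixed Swiss Webster (CD-1) background, and each cerebellum went to 1 Affymetrix Mouse Gene 1.0 ST array. The labels describe no further allele, driver or treatment, and they give no hour at which tissue was taken.

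PAR bZIP proteins are leucine zipper transcription factors named for a proline- and acidic-residue-rich stretch beside their DNA-binding region. DBP, TEF and HLF activate genes through a short element called the D-box, and NFIL3, also known as E4BP4, binds the same element and represses. In most tissues the clock activators CLOCK and ARNTL drive Dbp through E-box elements, so that its RNA follows the time of day with a large swing, while Tef and Hlf usually swing less. Nfil3 is driven through elements bound by the ROR receptors and repressed there by NR1D1 and NR1D2, and it usually runs opposite to Dbp. In brain the activators are known for pyridoxal kinase, the enzyme that makes the active form of vitamin B6, and mice without them are prone to seizures.

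The sequences shown are those before the RefSeq starts of the genes that stood highest in the mutants among the 4, Tef and Dbp, beside Per3, a clock gene whose RNA was also higher and which was picked for display after the motif matches were seen. Each is 250 bases of assembly GRCm38.p6 that end just before the annotated start, read 5′ to 3′ on the strand of the gene, with matches to the searched motifs in capitals. The motifs were the E-box CACGTG, the D-box as TTATGTAA, TTACGTAA or TTATGCAA, and the Capicua octamer as TGAATGAA or TGAATGGA. The ROR response element (RORE), a nuclear receptor site after an A/T-rich flank, was searched as AANTAGGTCA or ATNTAGGTCA, where N is any base. Other forms of the RORE were not searched. Both strands were searched and no motif lies within another. Tef has 2 annotated starts, and the first window is chr15:81802423-81802672 on the + strand and the second chr15:81811164-81811413 on the + strand. The Dbp window is chr7:45704997-45705246 on the + strand and that of Per3 chr4:151044666-151044915 on the - strand.
Tef, upstream start: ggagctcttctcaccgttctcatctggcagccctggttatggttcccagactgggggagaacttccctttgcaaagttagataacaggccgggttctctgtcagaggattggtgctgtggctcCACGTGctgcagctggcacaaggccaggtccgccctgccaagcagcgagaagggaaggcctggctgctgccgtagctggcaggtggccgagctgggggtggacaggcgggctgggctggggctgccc
Tef, downstream start: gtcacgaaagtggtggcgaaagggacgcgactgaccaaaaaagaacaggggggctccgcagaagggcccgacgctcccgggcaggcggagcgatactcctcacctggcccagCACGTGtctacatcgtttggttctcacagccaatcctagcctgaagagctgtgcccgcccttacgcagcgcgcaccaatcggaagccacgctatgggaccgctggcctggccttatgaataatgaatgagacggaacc
Dbp: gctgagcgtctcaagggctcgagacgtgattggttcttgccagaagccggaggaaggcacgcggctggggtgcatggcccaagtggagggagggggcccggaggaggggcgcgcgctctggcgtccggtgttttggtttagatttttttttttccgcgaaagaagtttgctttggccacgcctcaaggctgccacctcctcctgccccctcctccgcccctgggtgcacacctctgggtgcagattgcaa
Per3: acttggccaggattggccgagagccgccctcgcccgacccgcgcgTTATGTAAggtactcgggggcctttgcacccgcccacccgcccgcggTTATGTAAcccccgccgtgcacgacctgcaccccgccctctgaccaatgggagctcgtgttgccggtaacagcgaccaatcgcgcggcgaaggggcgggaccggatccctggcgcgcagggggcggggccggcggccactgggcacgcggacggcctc
Both Tef windows hold 1 E-box, 127 and 138 bases before the start, and an E-box was present in 6.02% of 32851 such windows of RefSeq starts. The Per3 window holds the D-box TTATGTAA 2 times, 205 and 158 bases before its start, where 1.61% of windows hold a D-box. Since Per3 was picked for this match, nothing is read from that share. A D-box was also found before Per1, Coq10b, Cyp2b10, Cyp2a4 and Cyp2a5, genes of the lists read below. Of these, Per1, Coq10b and Cyp2b10 were measured, with differences of 0.26 (SE 0.16), 0.16 (SE 0.094) and 0.11 (SE 0.088), and limma called none of them. No searched motif matched the Dbp, Hlf or Nfil3 windows. The Capicua octamer matched 2.07% of all windows, the ROR element 0.32%, and neither matched any of the 5 windows of the 4 genes. Only the 2 octamers and the RORE forms given above were searched. Near its end the downstream Tef window reads tgaatgag, 1 base off TGAATGAA. The Nfil3 window, not shown, reads tgacctacta near its end, which on the other strand is 1 base off AANTAGGTCA. Such near matches were not searched for in full and were not counted over all windows, so nothing is read from them. A match is a description of the letters, and a window without one says nothing of sites farther away.

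Dbp, the family member whose RNA cycles most strongly, was higher in every Cic-L-null cerebellum than in every wild-type cerebellum. Its gene value, the mean over its probe sets of the log2 value that RMA (background correction, quantile normalisation and summary of probes) gives, was 8.89, 8.94, 8.90 and 9.07 in wild-type replicates 1 to 4 and 9.52, 9.52, 9.86 and 9.46 in Cic-L-null replicates 1 to 4. Cic-L-null replicate 3 stood above the other mutants, which lay close together, and the gap between the groups was 0.39 log2 units. The means of the groups were 8.95 ± 0.084 and 9.59 ± 0.18 (SD, n = 4 each). The difference was 0.64 (SE 0.090) on the log2 scale, or 1.56-fold, and it came to 0.55 without Cic-L-null replicate 3.

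Tef, an activator that is broadly expressed in brain and is known to bind the thyrotropin beta gene, was also higher in every mutant, by a smaller step. It measured 9.43, 9.37, 9.34 and 9.30 in wild-type replicates 1 to 4, and 9.57, 9.78, 9.78 and 9.68 in Cic-L-null replicates 1 to 4. Cic-L-null replicate 1 was the lowest mutant and lay 0.13 log2 units above the highest wild-type array. The means were 9.36 ± 0.055 and 9.70 ± 0.10 (SD, n = 4 each), a difference of 0.34 (SE 0.066) or 1.27-fold. With the median level of the probe sets in each array in place of their mean, the difference was 0.22. The median of the 9 probe set differences was 0.43.

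Hlf, the remaining activator, overlapped between the groups. It measured 8.35, 8.39, 8.38 and 8.47 in wild-type replicates 1 to 4 and 8.45, 8.51, 8.48 and 8.39 in Cic-L-null replicates 1 to 4. Within this overlap, wild-type replicate 4 exceeded Cic-L-null replicates 1 and 4. The means were 8.40 ± 0.050 and 8.46 ± 0.052 (SD, n = 4 each), and the difference was 0.060 (SE 0.056).

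Nfil3, the repressor that competes for the D-box, had a lower mean in the mutants with overlapping groups. It measured 8.36, 8.49, 8.45 and 8.33 in wild-type replicates 1 to 4, and 8.20, 8.38, 8.43 and 7.996 in Cic-L-null replicates 1 to 4. Cic-L-null replicates 1 and 4 lay below all wild-type arrays, whereas replicates 2 and 3 lay among them. The means were 8.41 ± 0.076 and 8.25 ± 0.20 (SD, n = 4 each), and the difference was -0.16 (SE 0.094). Without Cic-L-null replicate 4 it was -0.076.

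**Figure D1:**
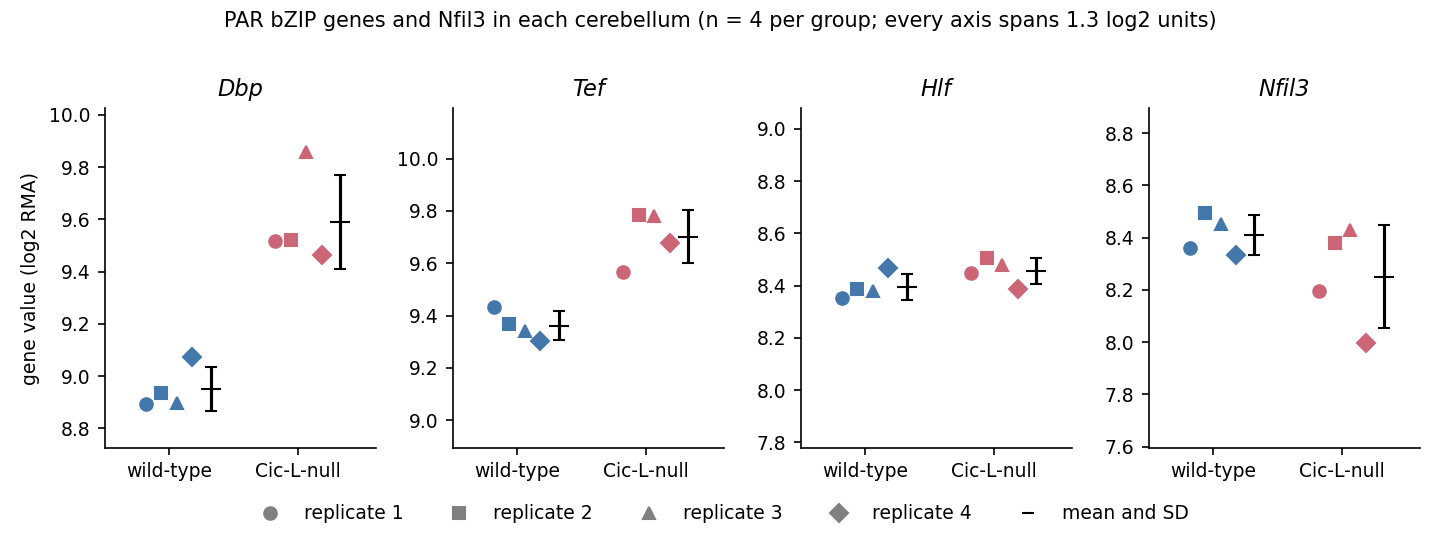
Gene values (log2 RMA, y axis) of Dbp, Tef, Hlf and Nfil3 in 4 wild-type and 4 Cic-L-null cerebella, 1 point per array with its replicate number as the symbol, and the mean and SD of each group as a bar. Dbp and Tef have no overlap between the groups, with gaps of 0.39 and 0.13 log2 units, whereas Hlf and Nfil3 overlap.

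In the fit over all 20352 genes with limma, which moderates each gene's variance towards that of the others, 1 of the 4, Dbp, was called at an adjusted p under 0.05, where 0.138% of all genes were called. For 2 of the 4, Dbp and Tef, the groups did not overlap, as for 5.94% of all genes. Since this contrast was in view when the genes were grouped, nothing is read from either count. Dbp ranked 32 among all genes by the size of its difference and Tef 350, while Nfil3 and Hlf ranked 2683 and 10663. The call of Dbp held in 1 of the 8 fits that left out an array, the one without Cic-L-null replicate 3. It was lost without any of wild-type replicates 1, 2, 3 or 4 and without Cic-L-null replicates 1, 2 or 4, with differences from 0.62 to 0.68. Cic-L-null replicate 3 was also the only mutant with the low Kdm5d and high Xist values of a female, at 5.26 and 10.55, as wild-type replicates 2 and 3 had, and with a covariate of Y-linked genes the Dbp difference was 0.67.

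Each gene value is the mean of its probe sets, and the 27 probe sets of the 4 genes follow in finer detail. For 12 of the 27 the groups did not overlap, 6 of Dbp and 6 of Tef, all higher in the mutants. Among all 241576 probe sets 4.3% had no overlap in either direction and 2.39% in this one. In a limma fit over all probe sets, 0 of the 27 were called at an adjusted p under 0.05. Probe sets are numbered, but the files do not say which exon each one covers, and probe sets of a gene share the same RNA and arrays.

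Of the 7 Dbp probe sets, 6 were higher without overlap, by 0.52 to 0.88 log2 units. Probe set 10553099 measured 8.54, 8.90, 8.69 and 8.93 in wild-type replicates 1 to 4 and 9.69, 9.42, 9.84 and 9.59 in Cic-L-null replicates 1 to 4, a difference of 0.87 (SE 0.13). Probe set 10553096 stood apart from the rest, with means of 9.48 ± 0.23 and 9.48 ± 0.069 (SD, n = 4 each) and a difference of -0.0039 (SE 0.12). It was not dim, since its level exceeded that of 95% of the probe sets of olfactory receptor genes, which mark background here at 6.31. Without this probe set the Dbp difference was 0.75.

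All 9 Tef probe sets had a higher mean in the mutants, and the 6 without overlap were those numbered 10425605 to 10425610, with differences from 0.34 to 0.50. Probe set 10425606 measured 9.51, 9.41, 9.32 and 9.30 in wild-type replicates 1 to 4 and 9.72, 9.96, 10.08 and 9.80 in Cic-L-null replicates 1 to 4. The first numbers behaved differently. Probe sets 10425603 and 10425604 differed by 0.043 (SE 0.18) and 0.011 (SE 0.10), and 10425602 by 0.44 (SE 0.20) with overlapping groups, through a wild-type range from 6.38 to 7.29. Whether these cover the RNA from 1 of the 2 annotated starts cannot be read from the files.

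The 8 Hlf probe sets ranged from -0.14 to 0.17 with a median of 0.12, 6 of them above 0 and all 8 with overlapping groups. Probe set 10389794 measured 10.71, 10.62, 10.53 and 10.62 in wild-type and 10.77, 10.77, 10.87 and 10.69 in Cic-L-null replicates 1 to 4, a difference of 0.15 (SE 0.084). Probe set 10389790, with means of 3.92 and 3.81, lay below the background limit and was the only dim one among the 27. Nfil3 had 3 probe sets, at -0.21 (SE 0.11), -0.29 (SE 0.19) and 0.021 (SE 0.15). The lowest of them, 10409280, owed its spread to Cic-L-null replicate 4 at 7.47, where the other mutants measured 8.09, 8.10 and 8.49.

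**Figure D2:**
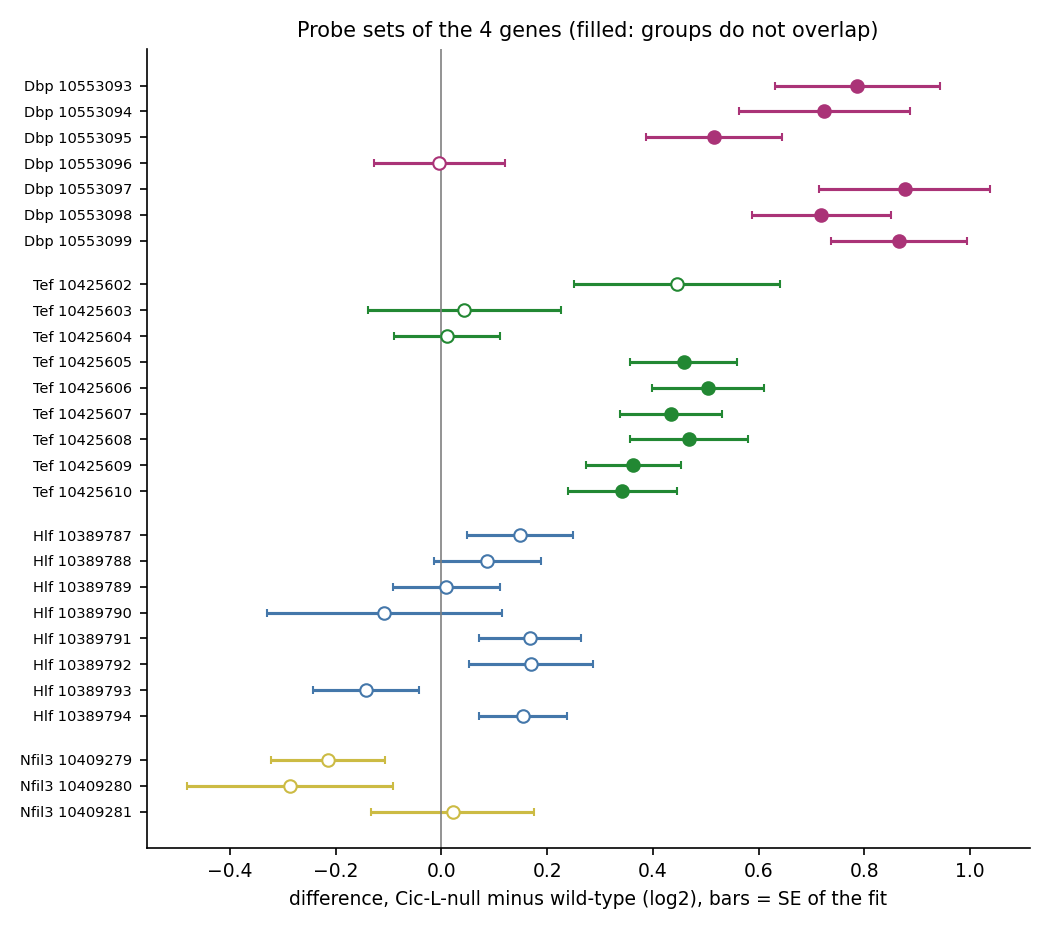
Difference between Cic-L-null and wild-type means (log2, x axis) for each of the 27 probe sets of Dbp, Tef, Hlf and Nfil3, with the SE of the fit as bars and filled points where the 2 groups of 4 arrays do not overlap. The 12 filled points belong to Dbp and Tef, and Dbp probe set 10553096 lies at -0.0039 beside 6 others from 0.52 to 0.88.

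Within arrays the activators and the repressor were also set against each other, as the mean deviation of Dbp, Tef and Hlf from their wild-type means minus that of Nfil3. This balance was 0.040, -0.089, -0.073 and 0.12 in wild-type replicates 1 to 4 and 0.49, 0.40, 0.45 and 0.69 in Cic-L-null replicates 1 to 4. The 4 mutants lay above all wild-type arrays. Dbp and Tef, which enter the balance, already separated the groups and were chosen with this contrast in view. Nothing is therefore read from this separation. Cic-L-null replicate 4 had the highest balance through its low Nfil3, and not through Dbp, for which it was the lowest mutant. The 4 genes thus did not order the mutants alike. Over 8 arrays Dbp and Tef correlated with r = 0.90, and with r = 0.26 after each group's mean was subtracted. Dbp and Nfil3 correlated with r = -0.34 and, with group means subtracted, 0.52. These arrays share the split into groups, so the values only describe the pattern.

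The other genes of the pathway were read from 6 lists with 51 of 55 genes measured, which like the 4 genes were written with earlier results of these data known. Of the 10 clock repressors, 3 rose and 0 fell at an adjusted p under 0.05 in limma over all genes. A difference above 0 was seen for 9 (90%), against 47% of all genes. The median was 0.42, against a median of -0.0071 over all genes. The groups did not overlap for 5 of the 10. Over all genes 0.138% were called and 5.94% had no overlap, and the list was not tested as a set. The 3 were Nr1d1, the nuclear receptor that represses Arntl and Nfil3, and the period genes Per3 and Per2.

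Nr1d1 measured 10.07, 10.10, 10.06 and 10.19 in wild-type replicates 1 to 4 and 10.79, 10.64, 10.96 and 10.65 in Cic-L-null replicates 1 to 4, which makes it higher by 0.66 (SE 0.078, limma adjusted p = 0.018). Per3, the gene with the paired D-boxes shown above, measured 7.77, 7.75, 7.77 and 7.86 in wild-type and 8.25, 8.30, 8.57 and 8.43 in Cic-L-null replicates, higher by 0.60 (SE 0.075, limma adjusted p = 0.0214). Per2 measured 7.52, 7.18, 7.55 and 7.29 in wild-type and 7.87, 8.11, 8.34 and 8.21 in Cic-L-null replicates, higher by 0.75 (SE 0.11, limma adjusted p = 0.0397). As with Dbp, Cic-L-null replicate 3 was the highest array for all 3. All 3 calls depended on single arrays and on the settings. The differences without single arrays ran from 0.59 to 0.69 for Nr1d1, 0.54 to 0.65 for Per3 and 0.68 to 0.83 for Per2. All 3 calls held with array weights (limma adjusted p from 0.0129 to 0.017). They also held with a trended and robust variance (0.000538 to 0.00727). Nr1d1 was lost without any of wild-type replicates 2, 3 or 4 or Cic-L-null replicates 1, 2 or 4 (adjusted p from 0.0564 to 0.076 with limma), and Per3 without wild-type replicates 2, 3 or 4 or Cic-L-null replicates 2 or 4 (0.0592 to 0.0891). Per2 was lost in every such fit but the one without Cic-L-null replicate 1 (0.052 to 0.168). Its call also ended with arrays centred on their medians (0.0532), with probe sets above the background limit only (0.0549) and with a covariate of Y-linked genes (0.0601), and all 3 calls ended with the median of probe sets (0.0635 to 0.207).

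The rest of the repressor list did not pass and is named after its values were seen. Bhlhe41 and Ciart, repressors of E-box transcription, differed by 0.50 (SE 0.13) and 0.47 (SE 0.13), and Nr1d2, the paralogue of Nr1d1, by 0.37 (SE 0.13). Bhlhe40, Per1 and Cry2 differed by 0.28 (SE 0.13), 0.26 (SE 0.16) and 0.11 (SE 0.071). Cry1, a cryptochrome whose RNA is known to peak later than those of the period genes, was the exception at -0.22 (SE 0.057), from 9.11 to 9.24 in wild-type and from 8.91 to 9.01 in Cic-L-null arrays, with no overlap. Bhlhe41 and Ciart were highest in Cic-L-null replicate 3, at 9.25 and 8.13, and without it they differed by 0.40 and 0.36. Per1 moved with single arrays, to 0.15 without Cic-L-null replicate 3, 0.17 without replicate 4 and 0.39 without replicate 1. Bhlhe40 came to 0.18 without Cic-L-null replicate 2, and Cry2 to 0.072 without Cic-L-null replicate 3.

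Among the 6 measured clock activators 0 were called by limma, 4 had an unadjusted p under 0.05, as did 9.26% of all genes, and the median difference was -0.11. Arntl, the partner of CLOCK, measured 9.19, 9.57, 9.31 and 9.30 in wild-type replicates 1 to 4 and 9.38, 8.88, 8.53 and 8.93 in Cic-L-null replicates 1 to 4. The groups overlapped through Cic-L-null replicate 1, and the difference was -0.41 (SE 0.15). Npas2, the paralogue of Clock, differed by -0.40 (SE 0.086) with no overlap, but by -0.19 with the median of its probe sets. Clock, named with Arntl after its value was seen, differed by -0.21 (SE 0.068). Cic-L-null replicate 3, the array with the most Dbp, had the lowest value of Arntl, Npas2 and Clock, 8.53, 6.67 and 9.64. Rora, a ROR receptor abundant in Purkinje cells, differed the other way, by 0.17 (SE 0.054).

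**Figure D3:**
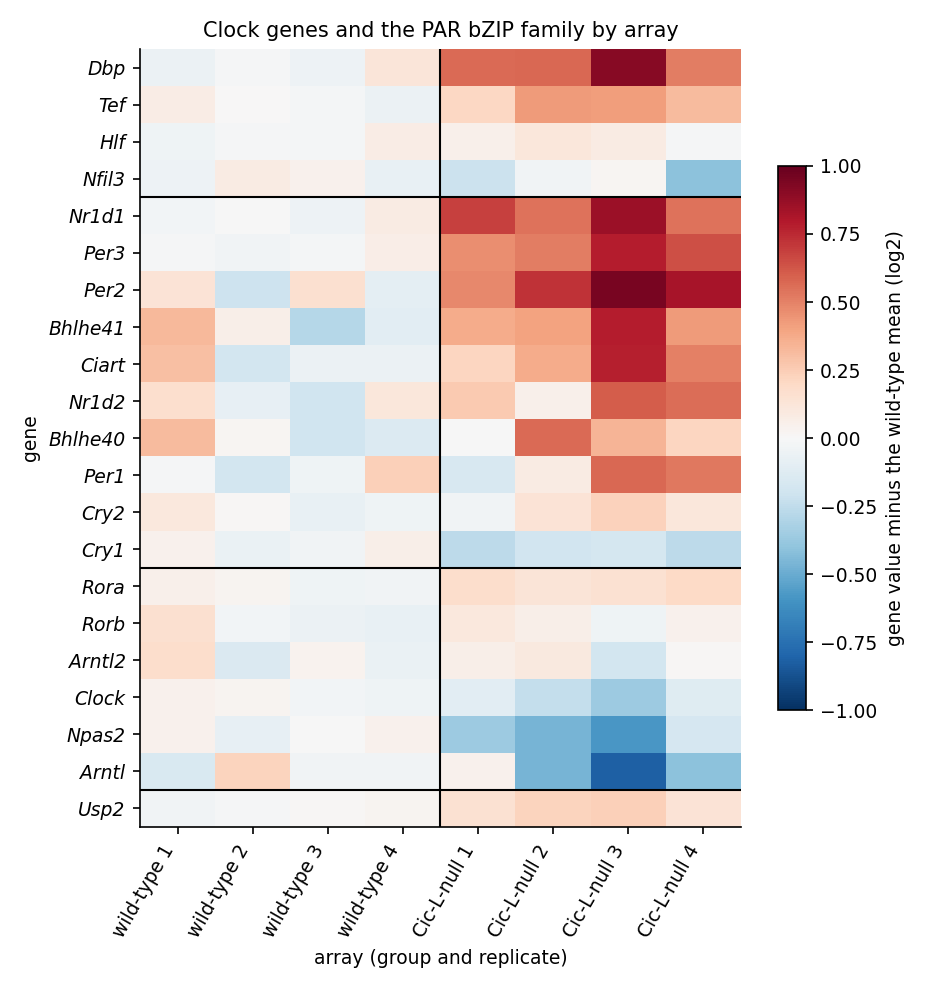
Gene value minus the wild-type mean (log2, colour, red higher and blue lower) of the 4 genes, the 10 clock repressors, the 6 clock activators and Usp2 in each of 8 arrays. Dbp, Tef, Nr1d1, Per3 and Per2 are red in all 4 Cic-L-null arrays, and Arntl, Npas2 and Clock are bluest in Cic-L-null replicate 3.

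Genes known from liver and brain as targets of the PAR bZIP factors stayed close to wild-type, with differences from -0.13 to 0.17. Of 12 measured, limma called 0, and 1 (8.33%) had an unadjusted p under 0.05, near the share of 9.26% over all genes. A difference above 0 was seen for 10 (83.3%), against 47% of all genes. Their median was 0.034, against -0.0071 over all genes, and the list was not tested as a set. Abcb1a, which encodes a drug efflux pump, differed by -0.13 (SE 0.056), and Por, the electron donor of cytochrome P450 enzymes, by 0.095 (SE 0.054). Pdxk, the pyridoxal kinase gene and the brain target best known for this family, was named after its value was seen. It differed by 0.032 (SE 0.059), and by -0.031 with the median of its probe sets. Only 7 of the 12 had a mean above the background limit for genes of 6.21, and Cyp7a1, Cyp2b10, Tshb, Nr1i3 and Cyp2c50, which are best known from liver or pituitary, lay below it.

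The remaining lists gave 0 calls with limma. Of 12 other clock outputs 1 (8.33%) had an unadjusted p under 0.05, again near the share over all genes, with a median of -0.031. That 1 was Usp2, a deubiquitinase whose RNA is known to cycle in many tissues, at 0.19 (SE 0.054) with no overlap, while Lonrf3 differed by -0.15 (SE 0.085). With the median of probe sets they differed by 0.12 and -0.047, and Lonrf3 by -0.095 without Cic-L-null replicate 3. Of 6 clock kinase and degradation genes 2 had an unadjusted p under 0.05, the casein kinase gene Csnk1e at 0.15 (SE 0.052) and the ubiquitin ligase gene Fbxl21 at -0.23 (SE 0.10), with a list median of 0.011. Fbxl21 differed by -0.34 with the median of probe sets and -0.14 without wild-type replicate 4. Its Cic-L-null mean of 6.16 lay below the background limit for genes of 6.21, and its wild-type mean of 6.39 lay above it. The 5 C/EBP genes, bZIP factors with related binding sites, had 0 with an unadjusted p under 0.05 and a median of -0.0090. Their smallest p belonged to Cebpe at 0.072 (SE 0.073) and Cebpa at -0.042 (SE 0.072).

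**Figure D4:**
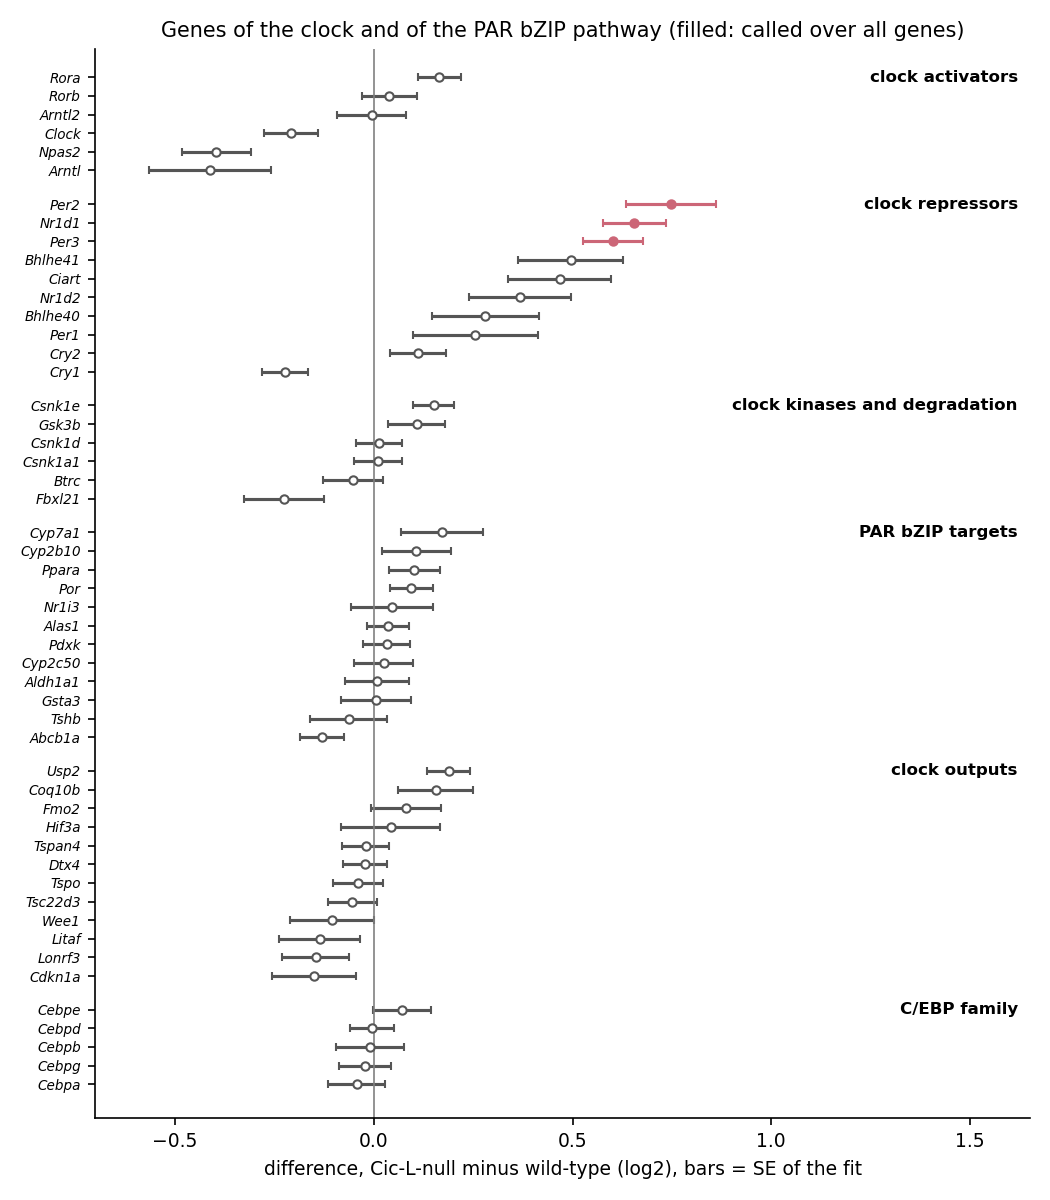
Difference between Cic-L-null and wild-type means (log2, x axis) of the 51 measured genes of 6 lists, with the SE of the fit as bars and filled points for genes called by limma over all genes. The 3 filled points are Nr1d1, Per3 and Per2, and the 12 PAR bZIP targets lie between -0.13 and 0.17.

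The genes most like each of the 4 were ranked by Pearson r of gene values over the 8 arrays, among 14006 genes above the background limit. Picking the highest of so many genes over 8 arrays yields a high r in any case, so these values are a description. Nr1d1 was most like Dbp, with r = 0.989, and with r = 0.921 after group means were subtracted. Per3 and Usp2 followed at 0.974 and 0.967, then Cdyl at 0.955 and the sodium channel gene Scn11a at 0.954. Scn11a passed the limit through its Cic-L-null mean of 6.80, while its wild-type mean of 6.15 lay below the limit, so its r with Dbp rests in part on values at background. So 3 of the 5 came from the clock lists, and with group means subtracted the 5 ranged from 0.615 to 0.921.

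The genes most like Tef were none of the clock lists. Cerkl, a ceramide kinase-like gene, came first with r = 0.987 (0.911 with group means subtracted) and measured 7.35, 7.33, 7.29 and 7.32 in wild-type replicates 1 to 4 and 7.51, 7.71, 7.68 and 7.64 in Cic-L-null replicates 1 to 4. It shared with Tef the low position of Cic-L-null replicate 1 among the mutants. Nckap1l at 0.976, Gpr176, an orphan receptor known for its place in the central clock, at 0.967, the von Willebrand factor gene Vwf at 0.966 and Dusp5, an ERK phosphatase gene, at 0.961 came next.

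Of the genes most like Hlf and Nfil3, limma called none. For Hlf these were Ilvbl at 0.990, Zfp113 at 0.955, Bcl3 at 0.949, Magee1 at 0.934 and Gsdme at 0.926. For Nfil3 they were the chromogranin gene Chga at 0.971, Dleu7 at 0.967, Gm13889 at 0.952, Mboat1 at 0.949 and Barhl1, a homeobox gene of granule cells, at 0.944. With group means subtracted all 10 had r between 0.911 and 0.985. Hlf and Nfil3 overlapped between the groups, so this step could change little, and nothing is read from it. The differences of these 10 genes lay between -0.20 and 0.15 log2 units.

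**Figure D5:**
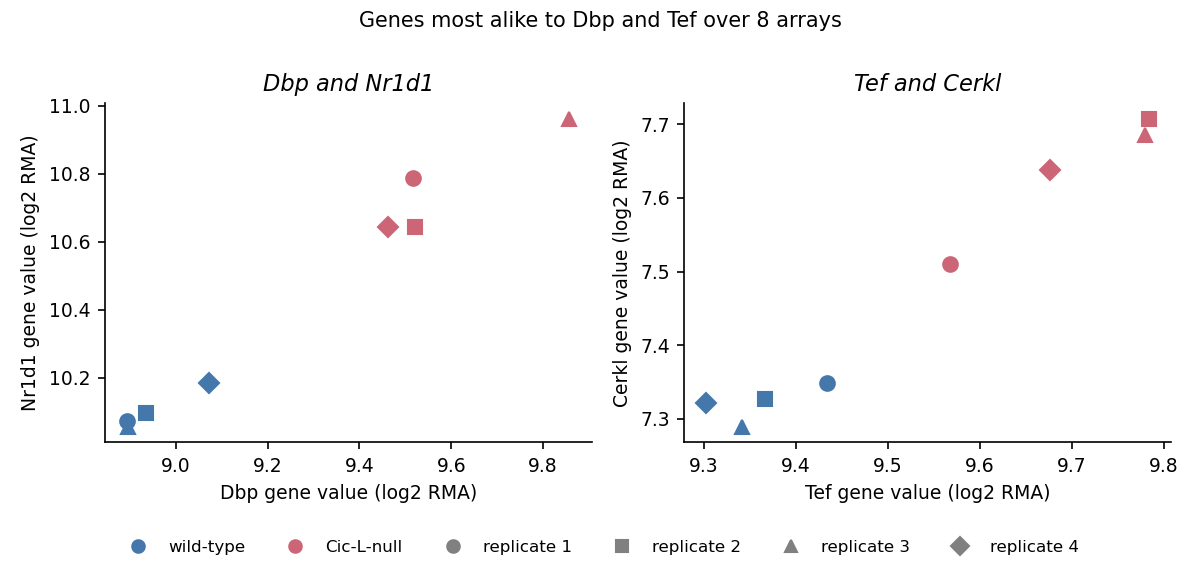
Gene values (log2 RMA) of Dbp against Nr1d1 and of Tef against Cerkl, the gene most like each, with 1 point per array, blue for wild-type and red for Cic-L-null, and the replicate number as the symbol. Cic-L-null replicate 3 is highest for Dbp and Nr1d1, and Cic-L-null replicate 1 is the lowest mutant for Tef and Cerkl.

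Across the series, Cic itself lay between 8.57 and 9.19 in wild-type and between 7.48 and 7.62 in Cic-L-null arrays. Gene values of any 2 arrays correlated between 0.9913 and 0.9954. All 6 measured granule cell and all 6 measured Purkinje cell markers lay above the background limit, as the labelled tissue has them, and their median differences were 0.012 and 0.026. Averaged over the list, Bergmann glia and astrocyte markers ran from 9.73 to 9.90 in wild-type and from 9.50 to 9.57 in Cic-L-null arrays, and mature oligodendrocyte markers from 10.70 to 10.78 and from 10.53 to 10.64, both without overlap and with 0 of 7 and 0 of 6 members above 0. The glial list held 1 called gene, Fabp7 at -1.17 (SE 0.14), and without it ran from 9.68 to 9.79 and from 9.57 to 9.61, still without overlap. Markers of brainstem and forebrain ran from 5.86 to 5.96 and from 6.02 to 6.08, also without overlap, with 4 of 6 above 0. Only 2 of 6 lay above the background limit, and they went opposite ways, Th at 0.58 (SE 0.11) and Hoxb3 at -0.31 (SE 0.091). Endothelial markers ran from 8.53 to 8.71 and from 8.27 to 8.66, choroid plexus markers from 8.13 to 8.61 and from 7.48 to 8.70, and microglia markers from 7.20 to 7.24 and from 7.16 to 7.26. The lowest choroid plexus mean, 7.48, was that of Cic-L-null replicate 3, the array with the most Dbp, and the highest, 8.70, that of Cic-L-null replicate 1. Markers of the pineal gland, a strongly rhythmic neighbour of cerebellum, had 1 of 6 above the background limit, Aanat, at 6.06 to 6.69 in wild-type and 6.31 to 6.49 in Cic-L-null arrays. The part of cell composition in the values of Dbp and Tef was not tested, and fewer cells of a type and less RNA per cell cannot be told apart in whole tissue. Dbp and Cic lie on the same chromosome, 7, whereas Tef, Hlf and Nfil3 lie on 15, 11 and 13.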

How the data were processed

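The authors deposited log2 expression values. The submitters' processing notes name RMA and the Affymetrix Power Tools, with tool versions, library files and the genome build not given in the sources used here. Arrays give no read depth, so their number limits the precision. Per the labels, wild-type replicate 1 was extracted with Trizol and an RNeasy cleanup and the other arrays by a standard protocol.

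Probe sets were named from the array's platform annotation, which is old. Of 241576, 212097 carried 1 symbol, 4475 several and 25004 none, and 0 of those with several named Dbp, Tef, Hlf or Nfil3. Of 20416 symbols, 17621 stood unchanged in the GRCm38.p6 gene table, 2742 were updated through a synonym and 53 kept. A gene value is the mean over its probe sets. Promoter windows came from RefSeq (GRCm38.p6), and all 4 genes matched by symbol.

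Groups were compared with limma 3.58.1 in R 4.3.3 (lmFit, eBayes without trend) and Benjamini-Hochberg adjustment over 20352 genes, without a filter. The fit was tested on simulated data. Background limits are the 95th percentiles of olfactory receptor genes and probe sets. P-values measure the spread between 4 animals per group.

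The 4 genes and the lists were chosen with earlier results of these data known. Named genes are the 4, called genes or else the 2 smallest p of each list, and the 5 most alike genes. Others are marked as seen first. Alternatives changed how probe sets were combined, the normalisation, array weights, covariates, the variance model, the threshold, the limit on dim genes and the arrays used.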

Additional observations from a re-analysis of the deposited data

Results flagged for a closer look

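Within the 4 Cic-L-null arrays, 1 array stood far from the others for 3 of the genes named, and chance alone gives about 1 such group in 20. In all, 90 groups of 4 arrays were examined, so the 3 flagged are no more than that rate would give. Dbp was at 9.858 in Cic-L-null replicate 3, where the other mutants lay from 9.463 to 9.521. Bhlhe41 was at 9.247 in the same array, against 8.837 to 8.888 in the others. Csnk1e was at 9.239 in Cic-L-null replicate 2, below the others at 9.278 to 9.281, a gap that is wide only beside their tight spread.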

How the results depend on the processing

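The difference of Dbp stayed between 0.55 and 0.75, that of Hlf between 0.043 and 0.089 and that of Nfil3 between -0.25 and -0.076 over the 17 alternatives of each. Tef stayed between 0.31 and 0.39 except at 0.22 with the median level of its probe sets in each array. That middle level can come from different probe sets, 10425604 in wild-type replicate 1 (9.58) and 10425606 in Cic-L-null replicate 1 (9.72). How far this change of probe set moved the value was not tested. The median of the 9 Tef probe set differences was 0.43. Without single arrays Dbp ran from 0.55 to 0.68, Tef from 0.31 to 0.39, Hlf from 0.043 to 0.084 and Nfil3 from -0.22 to -0.076.

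The 28 calls over all genes became 2 with the median of probe sets, 54 with array weights, 69 among genes above the background limit, 18 with the covariate of Y-linked genes, 130 with a trended and robust variance, 96 at an adjusted p under 0.10, and 0 to 37 without single arrays. The 3 related genes called became 0 with the median of probe sets and 0 to 2 without single arrays, and 2 with arrays centred, with probe sets above the background limit only and with the covariate of Y-linked genes, where Per2 was lost, while 11 to 17 had an unadjusted p under 0.05 in limma. With the limit on dim genes, the trended variance or the looser threshold, 2 of the 4 genes were called, Dbp and Tef, and with the median of probe sets 0. The causes were not tested. Where the sign turned, Pdxk was at -0.031, Zfp113 at -0.0092 and Barhl1 at 0.16 with the median of probe sets, and Cebpa at 0.0015 with array weights and from -0.085 to 0.019 without single arrays.

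With the replicate block, limma called 0 genes (2125 at an unadjusted p under 0.05) and 0 related genes (13), and the differences of Dbp, Tef, Hlf and Nfil3 are the same by construction, 0.64, 0.34, 0.060 and -0.16. Deviations of same-numbered arrays correlated at 0.219, 0.00032, 0.207 and 0.026. The best match was the array of the same number for replicates 1 and 3, and of another number for replicates 2 and 4. These few values cannot show whether same-numbered arrays share more than a number. Signal over background limits the dim PAR bZIP targets, and also Fbxl21, Scn11a and Cebpe.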
